A study of Homo sapiens with 24 samples.

Results

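The genes described here are 9 complement genes that fibroblasts are known to express: *C1R*, *C1S*, *C3*, *CFB*, *CFI*, *SERPING1*, *CD46*, *CD55* and *CD59*. They were found by their Entrez gene identifiers among the 25702 identifiers counted in each library. Of the 9, 7 passed the filter on low counts that left 13356 genes for testing, and *CFB* and *CFI* had no read in any of the 24 libraries.

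RNA-seq was performed on IMR90 cells, human lung fibroblasts with a finite lifespan, between passages 23 and 28. All cells, the untreated ones included, carried the ER:HRAS(G12V) fusion, an oncogenic RAS protein that becomes active when 4-hydroxytamoxifen (4OHT) is added, and all cells carried a retroviral MSCV construct as well. The groups of 6 biological replicates were growing (empty MSCV vector, no 4OHT), shHMGA1 (a miR30-based short hairpin against *HMGA1*, no 4OHT), RIS or RAS-induced senescence (empty vector, 6 days of 4OHT) and RIS+shHMGA1 (the hairpin and 6 days of 4OHT). HMGA1 is an architectural chromatin protein of senescence-associated heterochromatin foci, and the design asks how expression changes with senescence and with loss of HMGA1. No group had the hairpin vector with a control target, and no untransduced or 4OHT-treated cells without the RAS fusion were analysed here, so an effect of 4OHT itself and one of RAS cannot be told apart.

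Complement is a cascade of plasma and tissue proteases that marks surfaces for uptake and lysis. In the classical pathway, C1q bound to a target activates the protease C1r, which activates C1s, and C1s cleaves C4 and C2 to build the enzyme that cleaves C3, the component at which all pathways meet. Factor B (*CFB*) supplies the protease of the alternative pathway. Host cells hold the cascade back: C1 inhibitor (*SERPING1*) inactivates C1r and C1s, factor I (*CFI*) degrades active C3 and C4 fragments with cofactors such as CD46, CD55 speeds the decay of the C3-cleaving enzymes, and CD59 blocks assembly of the membrane attack complex. The liver makes most of the circulating components, and fibroblasts are a known local source of several.

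Total counts ranged from 8698070 to 23103424 per library, with a median of 10604084. *HMGA1* was 639 to 861 CPM (counts scaled to a common effective library size) in growing, 641 to 786 in RIS, 54.4 to 143 in shHMGA1 and 60.0 to 262 in RIS+shHMGA1, so that the groups with and without the hairpin did not overlap. A pair of libraries stood apart from their groups. Over all tested genes, the library labelled growing replicate 4 lay 1.32 log2 units (root mean square) from the other growing libraries 0.61 from RIS and 0.328 from RIS+shHMGA1, and the library labelled RIS replicate 2 lay 1.08 from the other RIS libraries and 0.39 from growing. Their summed CPM over 6 genes known to rise in RAS-induced senescence were also turned round: the highest in growing (151000, with a group median of 8820) and the lowest in RIS (7010, with a group median of 84500). RIS replicates 3 and 4 also lay nearer to RIS+shHMGA1 than to the RIS mean, which includes replicate 2. Likewise, growing replicates 3 and 5 lay slightly nearer to shHMGA1 (0.311 and 0.405) than to the growing mean (0.34 and 0.418), which includes replicate 4. Whether the labels of the departing pair were exchanged was not tested, and if they were, each value given for them belongs to the other group. Both were kept under their labels, and results that rest on them are given with all 24 libraries and with the 22 others. All 8 fibroblast markers passed the filter, whereas none of 6 epithelial and none of 5 hepatocyte markers did, with *TTR* and *FGB* at 0 in every library. Of 5 endothelial markers only *TEK* passed, and of 7 leukocyte markers *CD68* and *CSF1R* did, while the defining *PECAM1* and *PTPRC* reached at most 1.27 and 0.688 CPM.

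RefSeq promoter windows (GRCh38.p14) were found for 6 of the 9 genes, and the 250 bases before 1 start site of each, the first listed, are printed for the gene that fell furthest, *C1R*, and for *CD55* and *CD59*, which did not fall. *C1R* lies on the minus strand (window chr12:7092446-7092695), *CD55* on the plus strand (chr1:207321428-207321677) and *CD59* on the minus strand (chr11:33736480-33736729). Each sequence runs 5′ to 3′ along the gene's own strand, and capitals mark matches, on either strand, to the letters TTNNGNAA (C/EBP), TTCNNNGAA (STAT), CCAAT or GGGCGG (GC box).
C1R: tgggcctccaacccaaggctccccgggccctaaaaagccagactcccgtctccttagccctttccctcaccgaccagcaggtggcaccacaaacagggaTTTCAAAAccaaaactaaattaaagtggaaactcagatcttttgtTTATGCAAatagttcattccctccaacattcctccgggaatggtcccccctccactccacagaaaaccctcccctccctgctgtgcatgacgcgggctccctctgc
CD55: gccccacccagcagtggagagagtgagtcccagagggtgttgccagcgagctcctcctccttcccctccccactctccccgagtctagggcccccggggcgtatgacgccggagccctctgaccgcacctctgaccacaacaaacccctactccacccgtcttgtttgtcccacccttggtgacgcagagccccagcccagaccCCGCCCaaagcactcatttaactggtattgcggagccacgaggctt
CD59: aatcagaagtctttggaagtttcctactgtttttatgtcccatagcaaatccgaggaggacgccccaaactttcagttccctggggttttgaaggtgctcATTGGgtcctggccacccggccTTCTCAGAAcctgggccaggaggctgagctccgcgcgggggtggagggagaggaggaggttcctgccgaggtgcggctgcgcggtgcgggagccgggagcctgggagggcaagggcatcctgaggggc
The printed *C1R* window held 2 matches to the C/EBP letters, which were present in 33.2% of 35116 promoter windows of the same length. The printed *CD55* window held 1 GC box (42.6% of windows). The printed *CD59* window held 1 match to the STAT letters (6.57%) and 1 CCAAT box (32% of windows). None of these 3 windows held TGANTCA (AP-1, 6.57% of windows), GGGNNTTCC (NF-kB, 5.78%) or TATAAA (10.7%). The table lists 2 windows for *C1R* and 4 for *CD59*, and the others differ: the second for *C1R* held 1 STAT and 1 C/EBP match, and among those of *CD59* the last held 2 AP-1 matches. Which start site these cells used was not tested. These matches describe letters only, and binding was not measured here.

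The clearest comparison was that of RIS+shHMGA1 with shHMGA1, since it holds neither of the departing libraries. The secreted initiators *C1R* and *C1S*, the central component *C3* and the C1 inhibitor gene *SERPING1* were lower with 4OHT, and none of the membrane regulators *CD46*, *CD55* and *CD59* was called. By edgeR's quasi-likelihood test (called at a false discovery rate below 0.01 and a log2 fold change beyond 0.58 in size), 4 of the 7 tested genes were called lower and 0 higher, where 39.1% of all tested genes were called. That share holds both directions, with 2615 genes called higher and 2605 lower. The median log2 fold change was −1.24 over the 7 genes and −0.02 over all tested genes. Without the departing libraries 44.4% of all genes were called (5959, of which 3023 were higher), and again 4 of the 7 were lower.

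**Figure D1:**
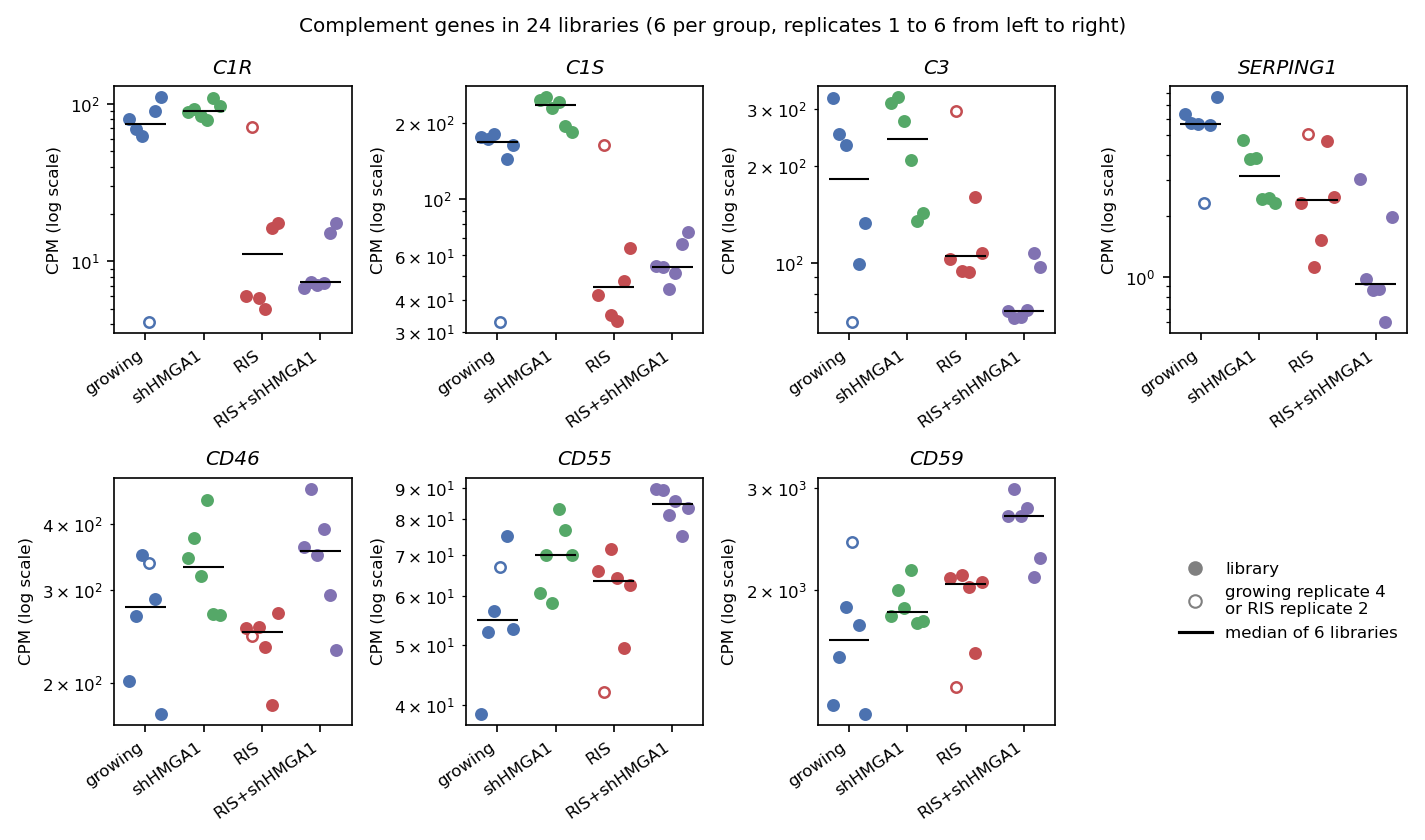
CPM of the 7 detected complement genes (log scale) in each of 24 libraries by group; each point is a library, replicates 1 to 6 run from left to right, open circles are growing replicate 4 and RIS replicate 2, and the line is the median of 6. C1R and C1S are low in all RIS+shHMGA1 libraries and in RIS except replicate 2, whereas CD59 is highest in RIS+shHMGA1, at 2104 to 2993 CPM.

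*C1R* (Entrez 715, GRCh37 chr12:7187513-7245203, minus strand) had the widest range. In growing its lowest, median and highest CPM were 4.12, 75.2 and 111, in shHMGA1 79.8, 90.9 and 110 (mean 92.1 ± 10.7, SD, n = 6), in RIS 5.02, 11.2 and 71.5, and in RIS+shHMGA1 6.73, 7.34 and 17.5 (mean 10.2 ± 4.80, n = 6). The lowest growing library was replicate 4 and the highest RIS library was replicate 2. With those left out, growing (63.1 to 111) and RIS (5.02 to 17.5) did not overlap, and shHMGA1 and RIS+shHMGA1 did not overlap with all libraries in. How many of all tested genes separate in this way was not counted, here or for the genes below. In RIS+shHMGA1 *C1R* fell by 3.17 ± 0.61 (SE) on the log2 scale from shHMGA1, to 0.111 of its level, lower in 6 of 6 replicate numbers (edgeR adjusted p = 0.00039). Among the 4OHT libraries, replicates 5 and 6 were the highest of their groups once RIS replicate 2 is set aside, at 16.4 and 17.5 CPM in RIS and 15.2 and 17.5 in RIS+shHMGA1.

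*C1R* shares 672 exonic bases, 31.8% of its longest protein-coding transcript, with the neighbouring *C1RL* on the same strand. How the counting treated reads in shared exons is not given in the sources used here. *C1RL* itself was low, at 4.66 to 9.38 CPM over all groups, and was called in no comparison.

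*C1S* (Entrez 716, chr12:7096351-7178336, plus strand) lies next to *C1R* and moved with it. Its lowest, median and highest CPM were 32.8, 168 and 181 in growing, 184, 236 and 252 in shHMGA1, 33.1, 44.9 and 164 in RIS, and 44.2, 54.2 and 74.1 in RIS+shHMGA1. The lowest growing and the highest RIS library were again the departing ones. From shHMGA1 to RIS+shHMGA1 *C1S* fell by 1.97 ± 0.36 on the log2 scale, to 0.255 of its level, in 6 of 6 replicate numbers (edgeR adjusted p = 0.00028). The log2 CPM of *C1R* and *C1S* had a Pearson r of 0.97 over the 24 libraries and 0.964 over the 22, which share groups and a normalisation.

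The pair did not fall by the same amount. Reads on *C1R* per read on *C1S* ranged from 0.329 to 0.562 (median 0.367) in shHMGA1 and from 0.124 to 0.236 (median 0.152) in RIS+shHMGA1, with no overlap. In growing the ratio was 0.349 to 0.676 without replicate 4 and 0.126 in that library. In RIS it was 0.143 to 0.343 without replicate 2 and 0.436 in that library. Replicates 5 and 6 had the highest ratios of every group once RIS replicate 2 is set aside. Their ratios were 0.626 and 0.676 in growing, 0.562 and 0.531 in shHMGA1, 0.343 and 0.273 in RIS, and 0.228 and 0.236 in RIS+shHMGA1. The cause of that split was not tested.

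*C3* (Entrez 718, chr19:6677715-6730573, minus strand) had lowest, median and highest values of 65.3, 182 and 324 CPM in growing, 135, 243 and 327 in shHMGA1, 93.8, 105 and 296 in RIS, and 67.2, 70.8 and 107 in RIS+shHMGA1. The shHMGA1 and RIS+shHMGA1 ranges did not overlap. *C3* fell by 1.55 ± 0.35 on the log2 scale between them, to 0.343 of its level (edgeR adjusted p = 0.0011). The fall was uneven: replicates 5 and 6 of shHMGA1, at 135 and 142 CPM, were the lowest of their group, and replicates 5 and 6 of RIS+shHMGA1, at 107 and 96.6, the highest of theirs. Differences between libraries of the same number therefore ran from −2.28 to −0.33 on the log2 scale.

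*SERPING1* (Entrez 710, chr11:57364860-57386644, plus strand) was the least abundant of the 7 genes, with as few as 6 reads in a library, so that counting error is large. Its lowest, median and highest CPM were 2.32, 5.69 and 7.66 in growing, 2.33, 3.12 and 4.73 in shHMGA1, 1.12, 2.39 and 5.08 in RIS, and 0.602, 0.931 and 3.05 in RIS+shHMGA1, and every neighbouring pair of groups overlapped. It was lower in RIS+shHMGA1 than in shHMGA1 by a log2 fold change of −1.24 ± 0.39, in 6 of 6 replicate numbers (edgeR adjusted p = 0.0099). With 24 libraries that call is at the threshold: it was lost in 9 of the 12 fits that left out a library of either group, with an adjusted p of up to 0.026 (without shHMGA1 replicate 1 or RIS+shHMGA1 replicate 3). Those fits keep both departing libraries in the shared estimate of spread. The call held in the 22 libraries (edgeR adjusted p = 0.0023), in the libraries of this comparison alone (0.0017) and by DESeq2 (0.0043). It was lost with DESeq2's scaling in edgeR (0.011) and without the low-count filter (0.012).

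The membrane regulators behaved differently. *CD46* (Entrez 4179, chr1:207925382-207968858, plus strand), the cofactor for factor I, had lowest, median and highest values of 175, 279 and 350 CPM in growing, 269, 332 and 445 in shHMGA1, 182, 250 and 272 in RIS, and 231, 356 and 466 in RIS+shHMGA1, with overlap between all groups. Its log2 fold change from shHMGA1 to RIS+shHMGA1 was 0.05 ± 0.18 (edgeR adjusted p = 0.82), higher in 4 of 6 replicate numbers.

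*CD55* (Entrez 1604, chr1:207494864-207560149, plus strand), also called decay-accelerating factor, ran from 38.8 to 75.1 CPM (median 54.99) in growing, from 58.6 to 83.0 (median 70.1) in shHMGA1, from 42.1 to 71.6 (median 63.4) in RIS and from 75.2 to 89.6 (median 84.5) in RIS+shHMGA1. All RIS+shHMGA1 libraries lay above all RIS and all growing libraries, with a narrow gap to growing (75.23 against 75.11 CPM). From shHMGA1 its log2 fold change was 0.27 ± 0.14 (edgeR adjusted p = 0.1).

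*CD59* (Entrez 966, chr11:33724556-33758025, minus strand), the inhibitor of the membrane attack complex, had the highest counts of the 7 genes, with 14048 to 31847 reads per library. Its lowest, median and highest CPM were 1223, 1637 and 2424 in growing, 1757, 1831 and 2167 in shHMGA1, 1361, 2045 and 2122 in RIS, and 2104, 2685 and 2993 in RIS+shHMGA1. The highest growing library was replicate 4 and the lowest RIS library was replicate 2. From shHMGA1 to RIS+shHMGA1 the log2 fold change was 0.45 ± 0.16, positive in 6 of 6 replicate numbers. It was not called (edgeR adjusted p = 0.017). It passed the false discovery rate by edgeR without the departing libraries (adjusted p = 0.0022) and in the libraries of this comparison alone (0.0022). The same held for DESeq2 (0.0048) and limma-voom with sample weights (3.1e-06). It did not pass with DESeq2's scaling in edgeR (0.014), without the low-count filter (0.038) or with replicate number as a block (0.012). In all these fits the log2 fold change, at 0.42 to 0.51, stayed under the fold threshold.

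In RIS against growing, the comparison of senescent with proliferating cells of the same vector, the departing libraries sit on both sides. With all 24 libraries edgeR called 0 of the 7 complement genes and 0% of all tested genes, although 3 of the 7 and 4407 of all genes had an unadjusted p under 0.05, and DESeq2 called 0 of the 7 and 829 of all genes. limma-voom with sample weights, on the same 24 libraries, called 4 of the 7 and 6317 of all genes. Its weights were 0.0716 for growing replicate 4 and 0.0899 for RIS replicate 2, and 0.329 to 3.78 for the others. That fit therefore comes close to leaving out the departing libraries. By edgeR with 24 libraries the log2 fold changes were −1.77 ± 0.58 for *C1R* (edgeR adjusted p = 0.043), −1.17 ± 0.35 for *C1S* (0.032), −0.96 ± 0.36 for *SERPING1* (0.069) and −0.37 ± 0.34 for *C3* (0.46). Without growing replicate 4 and RIS replicate 2, 39.7% of all tested genes were called (5331, of which 2579 were higher), and 4 of the 7 complement genes were called lower. The log2 fold change was then −3.01 ± 0.31 for *C1R* (edgeR adjusted p = 1.3e-08) and −1.92 ± 0.16 for *C1S* (3.7e-10). It was −1.34 ± 0.32 for *SERPING1* (8e-04) and −0.90 ± 0.28 for *C3* (0.0067). The *C3* call was lost when replicate number was added to that fit as a block (−0.74, edgeR adjusted p = 0.032). Without the departing libraries the *C3* ranges still overlapped, at 98.8 to 324 CPM in growing and 93.8 to 160 in RIS. The membrane regulators were not called with 22 libraries either: the log2 fold changes were −0.10 ± 0.19 for *CD46*, 0.19 ± 0.13 for *CD55* and 0.37 ± 0.13 for *CD59* (edgeR adjusted p = 0.66, 0.23 and 0.02).

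Leaving out growing replicate 4 alone was enough for edgeR to call *C1R*, *C1S* and *SERPING1* lower in RIS (adjusted p = 0.0019, 0.00075 and 0.0099). Leaving out RIS replicate 2 alone called *C1R* and *C1S* (2e-04 and 9.4e-05). The summed CPM of the 8 fibroblast markers, which include the collagen genes *COL1A1* and *COL1A2*, moved the same way, from 14100 to 20000 in shHMGA1 to 4430 to 5820 in RIS+shHMGA1, and its part in these results was not tested. In bulk RNA, fewer cells expressing a gene and less RNA per cell cannot be told apart.

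**Figure D2:**
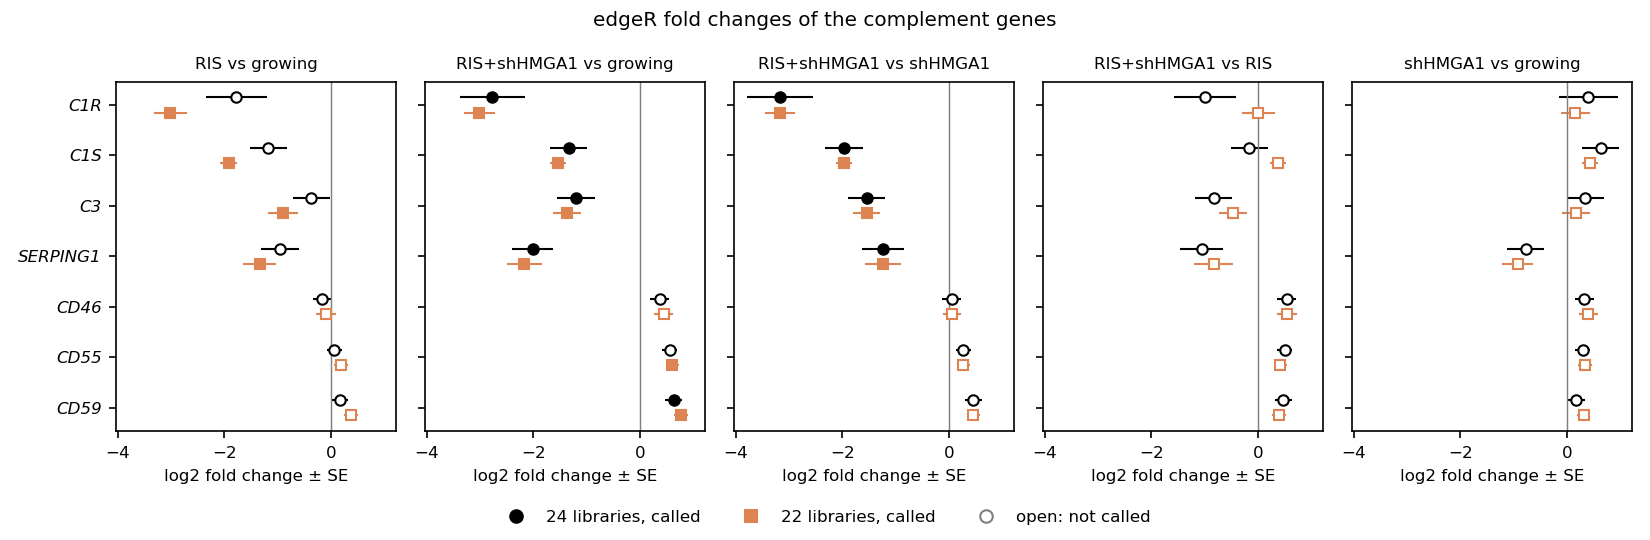
log2 fold changes (x axis, ± SE) of the 7 complement genes in 5 comparisons from edgeR, with all 24 libraries (black circles) and without growing replicate 4 and RIS replicate 2 (orange squares); filled symbols were called. In RIS against growing C1R moves from −1.77 to −3.01 when those libraries are left out, whereas in RIS+shHMGA1 against shHMGA1 it stays at −3.17 and −3.16.

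RIS+shHMGA1 was also set against growing, which changes the hairpin and 4OHT together and shares the growing libraries with the comparison before. With 24 libraries 45.9% of all genes were called, and among the 7 complement genes 4 were lower and 1 higher. *C1R*, *C1S*, *C3* and *SERPING1* fell, with log2 fold changes of −2.77 ± 0.61, −1.34 ± 0.35, −1.202 ± 0.35 and −2.01 ± 0.39 (edgeR adjusted p = 0.00072, 0.0024, 0.0047 and 0.00032). *CD59* was 1.54 times as high (log2 fold change 0.63 ± 0.16, adjusted p = 0.0019), and *CD55* passed the false discovery rate but stayed under the fold threshold (0.56 ± 0.14, adjusted p = 0.0018). Without the departing libraries 56.9% of all genes were called, *CD55* (0.61 ± 0.13, adjusted p = 0.00018) and *CD59* (0.76 ± 0.13, adjusted p = 1.1e-05) were higher, and *C1R*, *C1S*, *C3* and *SERPING1* lower. *CD46* was not called in either fit, with log2 fold changes of 0.37 and 0.44.

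Calls in that comparison that hang on a library were those of *C3*, *CD59* and *CD55*. The *C3* call was lost in 7 of 12 fits, those without growing replicate 1, 2 or 3 or RIS+shHMGA1 replicate 1, 2, 3 or 4, with log2 fold changes of −1.17 to −0.96 and edgeR adjusted p of 0.011 to 0.02. All of those fits keep growing replicate 4, and in the 22 libraries *C3* was called (−1.38, edgeR adjusted p = 4.9e-05). *CD59* fell under the fold threshold without growing replicate 1 (0.56), growing replicate 6 (0.55) or RIS+shHMGA1 replicate 2 (0.5795 against a threshold of 0.58). *CD55* passed it without growing replicate 4 (0.61), growing replicate 5 (0.65) or RIS+shHMGA1 replicate 5 (0.59), and also when libraries were scaled by DESeq2's relative log expression in place of TMM (0.58, adjusted p = 0.0015).

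The hairpin on its own was tested in proliferating and in 4OHT-treated cells. In shHMGA1 against growing, 0.27% of all genes were called and 0 of the 7 complement genes, by edgeR and by DESeq2, with 2 of the 7 at an unadjusted p under 0.05. Without the departing libraries the share was 2.59%, and again 0 of the 7 were called, with 5 of the 7 at an unadjusted p under 0.05. Closest were *SERPING1*, with a log2 fold change of −0.93 ± 0.29 (edgeR adjusted p = 0.03), and *C1S*, with 0.42 ± 0.15 (adjusted p = 0.046), in the 22 libraries. Every shHMGA1 library had more *C1S*, at 184 CPM or above, than every growing library, at 181 or below, a narrow gap for a gene called in neither fit.

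In RIS+shHMGA1 against RIS, 2.55% of all genes were called with 24 libraries and 12.5% with 22, and 0 of the 7 complement genes in either, although 5 of the 7 had an unadjusted p under 0.05 in each fit. DESeq2 called 0 of the 7 and 1573 of all genes, and limma-voom with sample weights called 1 of the 7, *CD46* (0.58, adjusted p = 0.00027), and 1856 of all genes. The membrane regulators had log2 fold changes of 0.54 ± 0.18 for *CD46*, 0.50 ± 0.14 for *CD55* and 0.47 ± 0.16 for *CD59* (edgeR adjusted p = 0.029, 0.017 and 0.03), and 0.54 ± 0.18, 0.42 ± 0.13 and 0.39 ± 0.13 without the departing libraries. *CD55* and *CD59* were higher in 6 of 6 replicate numbers. For *C1R* the difference rested on RIS replicate 2: the log2 fold change was −0.997 ± 0.58 with it and 0.00 ± 0.30 in the 22 libraries, and *C1S* went from −0.16 ± 0.35 to 0.37 ± 0.15 (adjusted p = 0.72 and 0.055). *C3* (−0.83 ± 0.35, then −0.48 ± 0.26) and *SERPING1* (−1.06 ± 0.40, then −0.83 ± 0.37) were lower in both fits without being called.

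Whether 4OHT acted differently with the hairpin was tested by the interaction term. edgeR called 0 of the 7 complement genes and 0% of all genes with 24 libraries (1371 of all genes and 1 of the 7 had an unadjusted p under 0.05), and 0.00745% of all genes and 0 of the 7 with 22 (0 of the 7 at an unadjusted p under 0.05); DESeq2 called 0 of the 7. For *C3* the interaction was −1.17 ± 0.49 on the log2 scale (adjusted p = 0.43) and −0.65 ± 0.37 in the 22 libraries (adjusted p = 0.99). For *C1R* it was −1.40 ± 0.81 and −0.15 ± 0.40. The standard errors leave room for interactions of this size, and no statement that the hairpin leaves the 4OHT effect unchanged can be made.

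To set the genes beside each other, CPM were divided by transcript length. The length was that of the Ensembl canonical transcript, except for *C1R*, where the longest protein-coding transcript was used. In growing the order of mean level per kb was *CD59* (222 ± 59.1), *CD46* (81.4 ± 21.3), *C1S* (54.1 ± 21.1), *C3* (35.2 ± 19.2), *C1R* (33.0 ± 17.1), *CD55* (22.1 ± 4.86) and *SERPING1* (3.03 ± 0.963 CPM per kb, SD, n = 6). From *CD46* down to *CD55* each neighbour in that order lay within the summed SDs of the next, and *CD59* at the top and *SERPING1* at the bottom stood clear. Without growing replicate 4 the order was *CD59* (202 ± 37.7), *CD46* (77.3 ± 21.0), *C1S* (62.5 ± 5.55), *C3* (39.7 ± 17.5), *C1R* (39.2 ± 8.79), *CD55* (21.3 ± 5.03) and *SERPING1* (3.38 ± 0.478, SD, n = 5), and *C1R* and *CD55* then lay further apart than their summed SDs. In RIS+shHMGA1 the membrane regulators took the 3 highest places: *CD59* (342 ± 43.8), *CD46* (105 ± 24.4) and *CD55* (32.4 ± 2.07), followed by *C1S* (21.4 ± 4.06), *C3* (15.3 ± 3.32), *C1R* (4.83 ± 2.27) and *SERPING1* (0.762 ± 0.514). With coding length in place of transcript length *CD55* in growing (50.1 ± 11.01) stood above *C3* (36.9 ± 20.2) and *C1R* (35.6 ± 18.5), so its place in the first order depends on the length used.

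**Figure D3:**
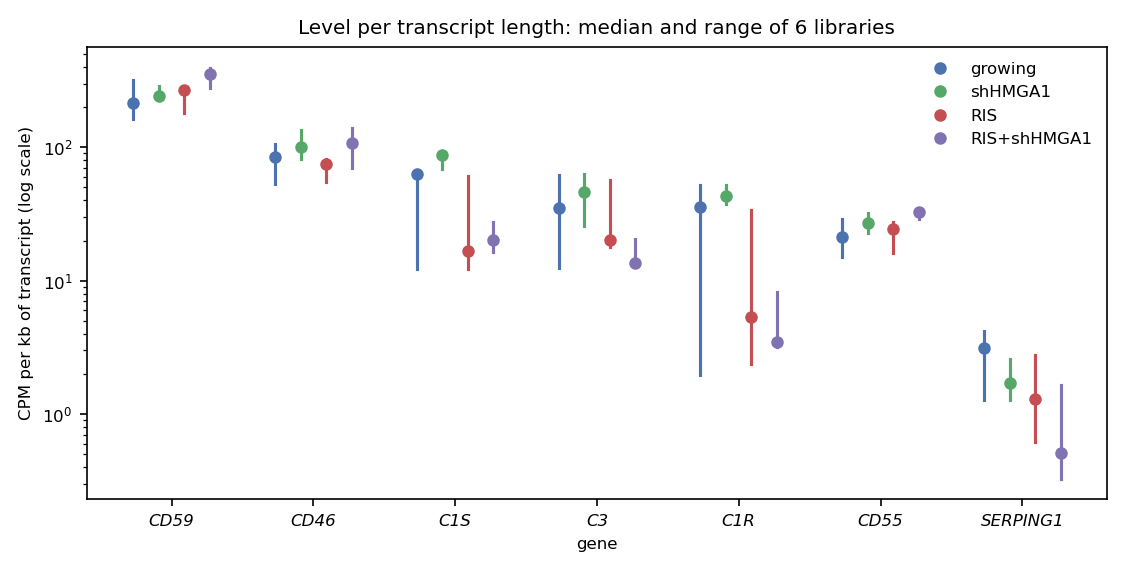
CPM per kb of transcript (log scale) of the 7 complement genes in each group; dots are medians and lines the range of 6 libraries. The genes are ordered by their mean in growing, from CD59 (222) to SERPING1 (3.03). In RIS+shHMGA1 the median of CD55 (32.6) lies above those of C1S (20.2), C3 (13.5) and C1R (3.48).

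*CFB* (Entrez 629, chr6:31913427-31919863, plus strand) and *CFI* (Entrez 3426, chr4:110652164-110723306, minus strand) are both listed at 0 in all 24 libraries, but their surroundings differed. Within 1 Mb of *CFB*, 77 of 86 counted protein-coding genes (89.5%) were at 0 in every library, among them genes that cells generally use such as *DDX39B*, *BAG6* and *EHMT2*, whereas 13% of protein-coding genes were at 0 over the whole genome. The complement genes *C2*, *C4A* and *C4B* of the same stretch of chromosome 6 were at 0 as well. The value of *CFB* is therefore given as listed at 0 and is no measure of its expression. Within 1 Mb of *CFI* 1 of 13 genes (7.69%) was at 0, and neighbours such as *GAR1*, *CASP6* and *SEC24B* had 2266, 4019 and 11581 reads over the 24 libraries. *CFI* was not detected, and at this depth a count of 0 allows up to 3 counts, or 0.119 to 0.439 CPM depending on the library, for counting error only. In the annotation used here 79.0% of the *CFI* transcript is also covered by a readthrough gene on the same strand.

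Of 53 other complement genes (activation, terminal, regulator and receptor genes), all were among the counted identifiers, 13 passed the filter, and 14 were at 0 in every library, including the C1q chains *C1QA* and *C1QC*, *C4BPA*, *C4BPB*, *CR1* and *CR2*. In RIS+shHMGA1 against shHMGA1 4 of the 13 rose and 4 fell, where 39.1% of all tested genes were called, 2615 higher and 2605 lower. *MASP1*, a protease of the lectin pathway, fell from a median of 14.0 to 2.00 CPM (log2 fold change −2.84 ± 0.48, edgeR adjusted p = 0.00023). *C5*, the component that starts the membrane attack complex, went from 5.04 to 1.01 CPM (−2.31 ± 0.37, adjusted p = 2e-04). The fluid-phase regulator clusterin (*CLU*) fell from a median of 266 to 67.1 CPM (−1.88 ± 0.33, edgeR adjusted p = 0.00026).

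Among those that rose, *C1QBP*, a mostly mitochondrial protein known for binding the C1q globular heads, went from a median of 178 to 630 CPM (log2 fold change 1.68 ± 0.40, edgeR adjusted p = 0.0015). *SERPINA1*, the gene of alpha-1-antitrypsin, went from 0.348 to 4.13 CPM (adjusted p = 0.00033), with 0 to 5 reads per shHMGA1 library. *ITGAX*, the alpha chain of complement receptor 4, had 0 or 1 read in each shHMGA1 library and 14 to 62 in each RIS+shHMGA1 library (adjusted p = 0.00069), and *CD93* had 0 to 2 and 5 to 13 (adjusted p = 0.0028), so no fold is given for these. *COLEC12*, a scavenger receptor of the collectin family, was not called in that comparison (log2 fold change 0.08 ± 0.26).

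**Figure D4:**
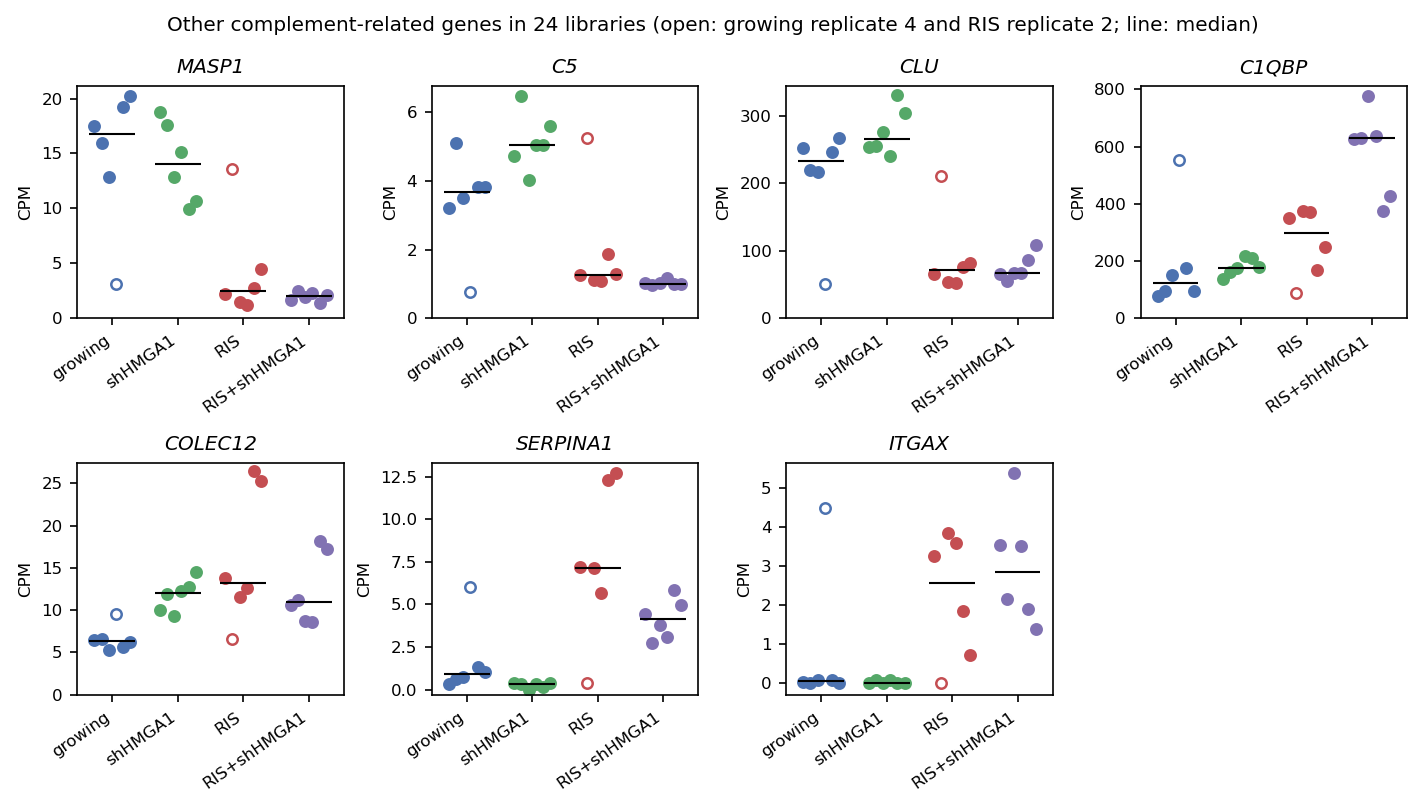
CPM of 7 other complement-related genes in each of 24 libraries by group; points are libraries, open circles are growing replicate 4 and RIS replicate 2, and lines are medians of 6. MASP1, C5 and CLU are lower in RIS+shHMGA1 than in shHMGA1, C1QBP, SERPINA1 and ITGAX are higher, and the open circles are the lowest or highest of their group in every panel.

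In RIS against growing 0 of these 13 genes were called with 24 libraries (0% of all genes), and without the departing libraries 5 rose and 5 fell (39.7% of all genes). *MASP1*, *C5* and *CLU* then fell, with log2 fold changes of −2.80 ± 0.25, −1.53 ± 0.18 and −1.86 ± 0.16, as did *SUSD4*, a membrane regulator of low level, with −1.41 ± 0.35 (edgeR adjusted p = 0.0014). *C1QBP* and *COLEC12* rose by 1.34 ± 0.24 and 1.56 ± 0.24 (adjusted p = 3.2e-05 and 4.3e-06). In RIS+shHMGA1 against growing, where 45.9% of all genes were called, 2 rose (*C1QBP* by 1.59 ± 0.40 and *COLEC12* by 0.92 ± 0.27) and 4 fell (*MASP1*, *C5*, *CLU* and *SUSD4*). With the hairpin alone 0 of 13 were called with 24 libraries (0.27% of all genes), and *COLEC12* was called higher with 22 (0.96 ± 0.23, adjusted p = 0.0098, with 2.59% of all genes called). In RIS+shHMGA1 against RIS 0 of 13 were called with 24 libraries (2.55% of all genes), and with 22 (12.5%) *C1QBP* was higher (0.93 ± 0.23, adjusted p = 0.0038) and *SERPINA1* lower (−1.11 ± 0.26, adjusted p = 0.003).

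Over the 24 libraries, the genes whose log2 CPM was most like that of *C1R*, among 10930 tested genes above a mean log2 CPM of 2, were *SERPINE2*, *CLU*, *PTN*, *DPYSL3* and Entrez 100287705 (Pearson r from 0.99 down to 0.987). Those most like *C3* were Entrez 100507164, *PBXIP1*, *GSN*, *NCSTN* and *EXT2* (0.949 to 0.937), and those most like *CD55* were *PLSCR1*, *MIS12*, *SLBP*, *NUP35* and *RPP30* (0.954 to 0.939). Over the 22 libraries the coefficients of these genes were 0.987 to 0.989 for *C1R*, 0.93 to 0.943 for *C3* and 0.928 to 0.963 for *CD55*. *CLU*, a complement regulator itself, thus stood among the 5 genes nearest to *C1R*. Between the genes of the set r was 0.79 for *C1R* and *C3* and 0.85 for *CD55* and *CD59*, and it was −0.71 for *C1R* and *CD59*, against 0.764, 0.848 and −0.684 over the 22 libraries. These coefficients run over libraries that share groups and a normalisation, and describe likeness only.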

How the data were processed

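RNA-seq was analysed in 24 libraries of IMR90 ER:HRAS(G12V) cells, 6 per group. Per the labels and the study's methods, the authors trimmed reads (cutadapt 1.10.0), mapped them to hg19 (STAR 2.5.0b), removed mapping qualities under 20 and counted reads per Entrez gene with Rsubread. The deposited values are raw counts. The annotation and strand setting used for counting are not given in the sources used here. The genes and lists were chosen with earlier results of these data known.

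Counts were filtered (filterByExpr), scaled by TMM and fitted with edgeR 4.0.16 in R 4.3.3 (quasi-likelihood, all groups in 1 fit, 13356 genes). Calls required a Benjamini-Hochberg adjusted p below 0.01 and a log2 fold change beyond 0.58 in size, as in the study's methods. p-values measure the spread between biological replicates. Log2 CPM used a prior count of 2. DESeq2 1.42.0, limma-voom (3.58.1) with sample weights, other filters and scaling, a replicate block and fits without libraries were alternatives. Scripts were tested on simulated data. Positions were from GENCODE lifted to GRCh37, symbols and promoters from RefSeq. Genes named were the 9, *HMGA1*, the other complement genes called in a comparison (the 8 most abundant, of which 1 is not reported here) and the 5 nearest by correlation to *C1R*, *C3* and *CD55*. *SUSD4* and *CD93*, called but less abundant, and *C1RL* were named after their values were seen. ATAC-seq and ChIP-seq libraries were not analysed here.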

Additional observations from a re-analysis of the deposited data

Results flagged for a closer look

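Of 28 tests for a library apart from its group (7 genes in 4 groups, Dixon's ratio of the gap to the range), 4 were above the critical value for 6 libraries, where chance alone gives about 1 in 20, or 1.4. In growing, replicate 4 was the lowest library for *C1R* (ratio 0.828), *C1S* (0.864) and *SERPING1* (0.73). In RIS, replicate 5 was the lowest library for *CD46* (0.63), at 182 CPM against 234 to 272 CPM in the others. The first 3 belong to the library whose whole profile lay nearest to RIS+shHMGA1, and all comparisons with growing are given with and without it.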

How the results depend on the processing

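Of the fold changes of the 7 genes under all alternatives, 896 kept their direction and their side of the threshold, 25 passed it, 22 no longer did and 16 changed sign. The call of *C1R* and *C1S* as lower in RIS+shHMGA1 against shHMGA1 and against growing held under every alternative run.

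All genes called in RIS against growing numbered 0 with 24 libraries, 829 by DESeq2, 6317 by limma-voom with sample weights, 1 with the replicate block, 5331 without the departing libraries and 5246 without them and with the block, a fit chosen after seeing the data. In shHMGA1 against growing the counts were 36, then 99 (DESeq2), 845 (voom), 23 (no filter), 5 (libraries of the comparison alone), 348 (22 libraries) and 484 (22 with the block). In RIS+shHMGA1 against RIS they were 341, then 1573 (DESeq2), 1856 (voom), 189 (no filter), 1637 (block), 1677 (22 libraries) and 1938 (22 with the block). For the interaction they were 0, then 5 (DESeq2), 7 (voom), 1 (22 libraries) and 2 (22 with the block). Of the 7 complement genes, 4 were called in RIS against growing by voom, 4 without the departing libraries and 3 without them and with the block. The call lost with the block was that of *C3*. In RIS+shHMGA1 against RIS voom called 1 (*CD46*, 0.58). With a library left out at a time, all genes called ranged from 0 to 3420 (RIS against growing, most without growing replicate 4), 10 to 67 (shHMGA1 against growing), 4974 to 7543 (RIS+shHMGA1 against growing), 62 to 492 (against RIS), 4349 to 5432 (against shHMGA1) and 0 to 1 (interaction), and the complement genes called from 0 to 3, 0 to 0, 3 to 6, 0 to 0, 3 to 4 and 0 to 0.

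Signs changed for *C1S* in RIS+shHMGA1 against RIS (0.0168 with the replicate block, 0.4235 by voom, 0.3701 in 22 libraries, 0.3696 in 22 with the block, −0.2979 to 0.3701 leaving out a library), *C1R* there (0.2373 by voom, 0.0035 in 22 libraries, 0.0743 in 22 with the block, −1.2194 to 0.0037 leaving out a library), the *SERPING1* interaction (0.3983 by voom, 0.0961 in 22 libraries, −0.6426 to −0.041 leaving out a library), and, leaving out a library, *CD55* in RIS against growing (−0.0369 to 0.1479, and 0.1863 in 22 libraries) and *CD46* in RIS+shHMGA1 against shHMGA1 (−0.0517 to 0.1432); none was called with 24 libraries. The cause was not tested. *SERPING1* lost its call against shHMGA1 with DESeq2's scaling in edgeR (adjusted p = 0.011) and without the filter (0.012), and *CD59* its call against growing in the libraries of that comparison alone (0.014).

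Libraries of the same number deviated together more often than others, though not all did. The correlation of deviations from group means was over 0.1 in 24 of 36 pairs of the same number (mean 0.175, range −0.594 to 0.828). For pairs of different numbers it was over 0.1 in 57 of 180 (mean −0.0496, range −0.93 to 0.835). Both counts include the departing libraries. The numbers were not taken as pairs in the main fit, and counts by replicate number describe direction only. The replicate block changed no call of the 7 genes with 24 libraries. Depth limits *SERPING1*, with 6 to 159 reads per library.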
